A study of Sus scrofa with 3 samples.

Results

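The genes of oxidative phosphorylation encode the subunits of the respiratory chain and of the ATP synthase in the inner mitochondrial membrane. The genes analysed were the mRNA features whose symbol starts with NDUFA, NDUFB, NDUFC, NDUFS, NDUFV, SDH, UQCR, COX4 to COX8 or ATP5, together with the 13 protein genes of the mitochondrial genome, and a member had to reach an FPKM of at least 1 in all 3 liver libraries. Of 82 genes found by name, 81 passed, 68 of them nuclear-encoded and 13 mitochondrially encoded, among 15613 mRNA features of 22945 that reached the same minimum. The gene that did not pass was COX8H, listed at 0 in all 3 libraries, and the member nearest above the minimum was NDUFA4L2, at FPKM values of 2.49, 2.13 and 1.53 in IM, CM and CMT. FPKM is the number of sequenced fragments per kilobase of transcript, divided by a measure of the size of the library.

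The livers came from male Chinese Wuzhishan miniature pigs, all kept for 12 weeks on a diet rich in fat and cholesterol (HFC). Their age is given as 6 to 7 months, which the study states for when they were obtained, before acclimation, surgery and the diet. IM pigs were intact and sham-operated, CM pigs were castrated, and CMT pigs were castrated and received 10 mg/kg testosterone propionate by weekly injection. The study had 6 pigs per group, the labels give 3 pigs per pool, and each group was sequenced as 1 library of pooled RNA. There are therefore no replicates, no difference below was tested against the spread between animals, and the comparisons of CM with IM and of CMT with CM share the CM library. Where an interval is given, it is a 95% exact binomial interval on the reads recovered from the FPKM values and covers counting error only. Mates of a read pair were counted as separate reads, so these intervals are in general too narrow.

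Complex I takes electrons from NADH and complex II takes them from succinate. Both hand them to coenzyme Q, complex III passes them on to cytochrome c, and complex IV delivers them to oxygen. Complexes I, III and IV pump protons, and complex V, the ATP synthase, uses the proton gradient to make ATP. All complexes but complex II are built from proteins of both genomes, and the mitochondrial genes are transcribed as long precursor RNAs that are cut into single messages. Hepatocytes are rich in mitochondria and use this chain to oxidize fatty acids and to supply ATP for glucose and urea synthesis.

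The recovered reads summed to 32072790, 36012668 and 25337507 in IM, CM and CMT. The deposited values did not scale with these sums: the reads of CM were 1.12 times those of IM, while the divisor behind the FPKM values was 1.36 times as large. Scaling the libraries to equal recovered reads therefore lifted every log2 ratio of CM to IM by 0.28 and lowered every log2 ratio of CMT to CM by 0.24. A log2 ratio of CM to IM between -0.28 and 0, or of CMT to CM between 0 and 0.24, thus changes sign under equal reads. Which library is called lowest or highest below refers to the deposited values. For this reason the nuclear-encoded and the mitochondrial genes are also given relative to the median of all 15613 mRNA features, which no scaling of a whole library can alter. With the deposited values that all-gene median was at -0.02, 0.01 and -0.01 on the log2 scale for CM to IM, CMT to CM and CMT to IM.

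Transcripts of oxidative phosphorylation were lower in CM than in IM relative to the median gene, and the mitochondrial messages more so than the nuclear ones. Relative to the all-gene median, the median log2 CM to IM ratio was -0.13 for the 68 nuclear-encoded genes and -0.46 for the 13 mitochondrial genes. In all, 51 of the 68 nuclear-encoded and 12 of the 13 mitochondrial genes lay below the all-gene median. In CMT versus CM the values were 0.20 and 0.37, with 9 nuclear-encoded genes and 0 mitochondrial genes below the all-gene median. CMT and IM were nearer to each other, at 0.09 for the nuclear-encoded and -0.05 for the mitochondrial genes. Single differences were moderate in size, and few genes reached a 1.5-fold difference.

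**Figure D1:**
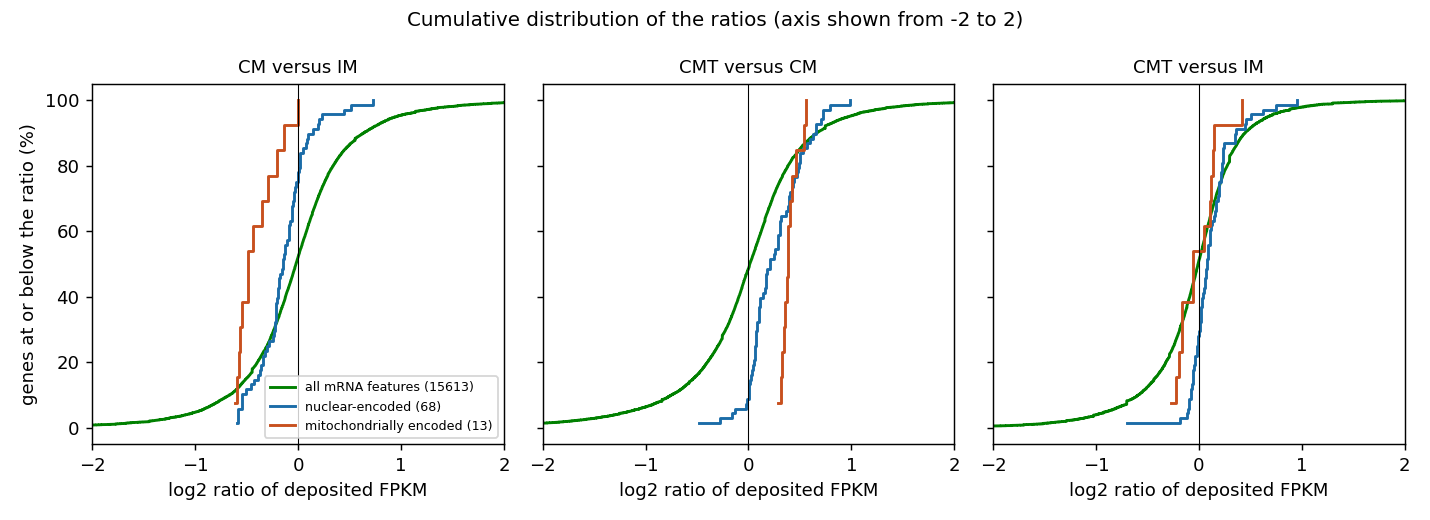
Cumulative share of genes (percent, vertical axis) at or below each log2 ratio of deposited FPKM (horizontal axis, shown from -2 to 2) for all mRNA features, the 68 nuclear-encoded and the 13 mitochondrially encoded genes, in the 3 comparisons. The curves of the members lie to the left of the all-gene curve over most of CM versus IM. In CMT versus CM they lie to its right over most of the range and cross it at the upper end. The medians for nuclear-encoded and mitochondrial genes are -0.15 and -0.48 in CM versus IM and 0.21 and 0.38 in CMT versus CM.

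Of the 81 members, 5 (6.17%) differed by at least 1.5-fold between CM and IM, against 23.2% of all mRNA features. These were 4 genes lower in CM (ND1, CYTB, NDUFA3 and NDUFV1), where 12.1% of all features were lower, and 1 gene higher in CM (NDUFAF4), where 11.1% were higher. Between CMT and CM, 9 members (11.1%) differed by that much, against 25.7% of all features in either direction, 12.1% higher and 13.5% lower. All 9 were nuclear-encoded and higher in CMT, namely ATP5B, NDUFA2, NDUFA3, NDUFA9, NDUFA10, NDUFS8, NDUFV1, NDUFAF5 and NDUFAF6. Between CMT and IM, 4 members (4.94%) did so, against 16.8% of all features. Of these, NDUFAF4, NDUFAF5 and NDUFB3 were higher in CMT and NDUFA4L2 was lower, where 6.67% of all features were higher and 10.1% lower. With the libraries scaled to equal reads, the calls between CM and IM were 3 genes higher in CM (NDUFAF4, NDUFC1 and SDHAF1) and 0 lower, and those between CMT and CM were 1 higher (NDUFAF5) and 1 lower (NDUFA4L2). In each comparison the deposited share of members past 1.5-fold was under the share of all features. The log2 ratios of the nuclear-encoded members had an SD of 0.26 for CM versus IM, against 0.65 over all features. These shares and SDs were not matched for level. The nuclear-encoded members had a median FPKM of 740 in IM against 49.2 for all features, and counting error spreads the ratios of weakly expressed features more.

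The mitochondrial messages were the most abundant of the set. Their median FPKM was 26931, 17588 and 24819 in IM, CM and CMT, which was 36.4, 29.5 and 31.8 times the median of the nuclear-encoded genes in the same library. Of all recovered reads, the 13 genes held 4.48% (4.47 to 4.49) for IM, 4.03% (4.02 to 4.04) for CM and 4.55% (4.55 to 4.56) for CMT. This share does not depend on the divisor, and CM had the lowest of the 3. The reads of the 66 nuclear-encoded genes with recovered reads made up 0.527%, 0.551% and 0.587% of the total, and here IM had the lowest share. Copies of mitochondrial sequence in the nuclear genome can share reads with these genes, and how such reads were counted is not given in the sources used here.

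**Figure D2:**
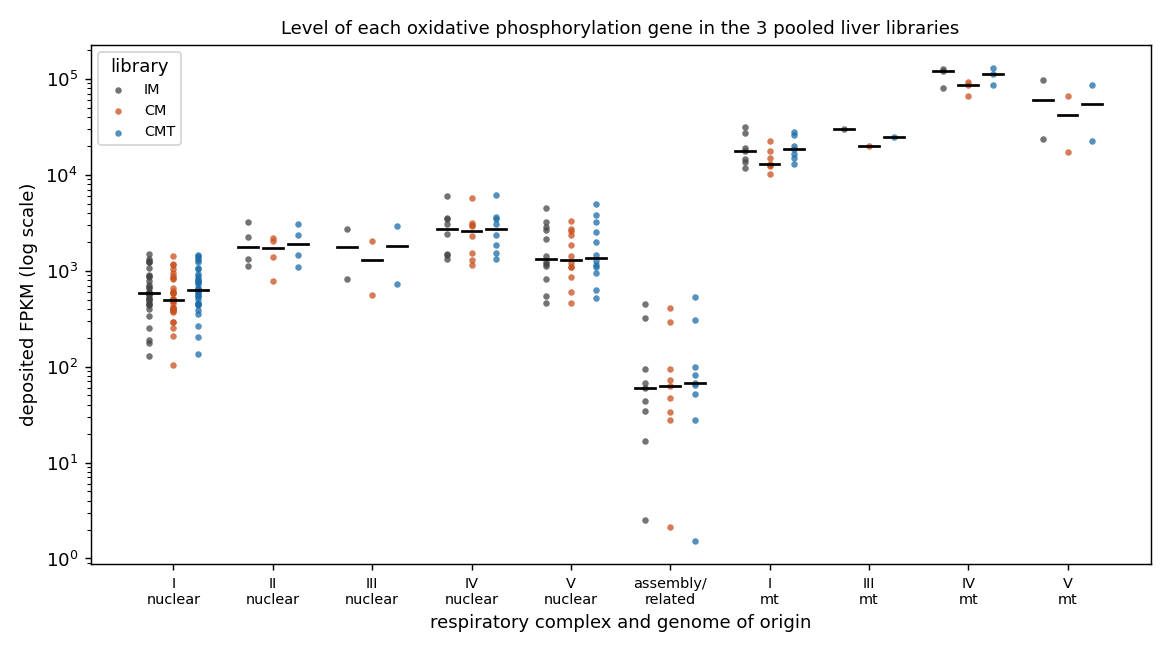
Deposited FPKM (log scale, vertical axis) of each of the 81 genes in IM, CM and CMT, grouped by complex and genome of origin, with 1 point per gene and library and a black bar at the median. The mitochondrial genes lie between 10256 and 128805, above every nuclear-encoded gene, the highest of which reached 6088, and the assembly factors and related proteins lie lowest with medians of 60.3, 63.0 and 67.0.

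The levels of the nuclear-encoded subunits differed between complexes, with complex I the lowest and complex IV the highest. The median FPKM of the 33 complex I subunits was 581, 499 and 631 in IM, CM and CMT, and single subunits lay between 104 and 1479 over the 3 libraries. The 12 complex V subunits had medians of 1328, 1304 and 1350, the 4 complex II subunits 1780, 1722 and 1911, and the 8 complex IV subunits 2733, 2609 and 2696. In each complex with subunits of both genomes the mitochondrial median was far above the nuclear-encoded one, by a factor of 30.7, 25.6 and 29.3 in complex I and of 45.7, 32.1 and 40.2 in complex V. That factor was lowest in CM for complexes I, IV and V, and for complex III, with 1 mitochondrial gene, it was 17.0, 15.2 and 13.7 and thus lowest in CMT.

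ND1, a membrane subunit of complex I that lies next to the site of coenzyme Q binding, had the lowest ratio of CM to IM among all 81 members. Its FPKM was 26931, 17588 and 25938 in IM, CM and CMT, so that CM stood at 0.653 (0.646 to 0.660) times IM and CMT at 0.963 times IM. CYTB, the cytochrome b of complex III, was at 29935, 19860 and 24819 in IM, CM and CMT. Its CM level was 0.663 (0.657 to 0.670) times that of IM, and its CMT level was 0.829 times that of IM, the lowest such ratio of the mitochondrial genes. Both genes were lowest in CM and highest in IM.

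The other membrane subunits of complex I were more varied. ND2 was at 17829, 12728 and 18447 in IM, CM and CMT, ND3 at 19091, 12786 and 16330, and ND4 at 31370, 22444 and 28008. Their ratios of CM to IM were 0.714, 0.670 and 0.715. ND4L and ND5 differed less, with 13444, 12188 and 14868 for ND4L (ratio 0.907) and 11833, 10256 and 13059 for ND5 (ratio 0.867). ND4 and ND4L were thus not lower in equal measure although they share a bicistronic message, and ND4 over ND4L was 2.33, 1.84 and 1.88 in IM, CM and CMT. The coding sequences of these genes overlap, so the values depend on how shared reads were counted.

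ND6, the only protein gene read from the other strand of the mitochondrial genome, was the exception in CM. Its FPKM was 14764, 14768 and 19761 in IM, CM and CMT. The log2 ratio of CM to IM was 0.00, with an interval of the ratio from 0.982 to 1.02, and CMT was 1.34 times as high as both. ND6 lies next to ND5 on the opposite strand, and ND6 over ND5 was 1.25, 1.44 and 1.51 in IM, CM and CMT. No strand information is given for these libraries, so reads of ND6 and of antisense RNA across it cannot be told apart.

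The mitochondrial subunits of complex IV form its core, in which COX1 and COX2 carry the copper and heme groups that pass electrons to oxygen. COX1 was at 119287, 93343 and 128805 in IM, CM and CMT, with a CM to IM ratio of 0.783 (0.779 to 0.786). COX2 was at 80381, 65772 and 86970, with a ratio of 0.818. COX3 was at 126811, 86747 and 112915, with a ratio of 0.684. CM was lowest for each, but COX1 and COX2 were highest in CMT and COX3 was highest in IM, and COX3 over COX1 was 1.06, 0.929 and 0.877 in IM, CM and CMT.

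ATP6, the proton channel subunit of the ATP synthase, was at 97982, 66416 and 85846 in IM, CM and CMT, a CM to IM ratio of 0.678 (0.673 to 0.683). ATP8, whose reading frame overlaps that of ATP6 on a shared message, was at 23543, 17327 and 22631, a ratio of 0.736. Both were highest in IM and lowest in CM. Among the 13 mitochondrial genes the ratio of CM to IM ran from 0.653 for ND1 up to that of ND6, with an SD of 0.20 on the log2 scale, while that of CMT to CM lay in a narrower band, from 1.22 for ND4L to 1.47 for ND1 with an SD of 0.08. CMT against IM was split, with 7 genes lower and 6 higher in CMT.

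**Figure D3:**
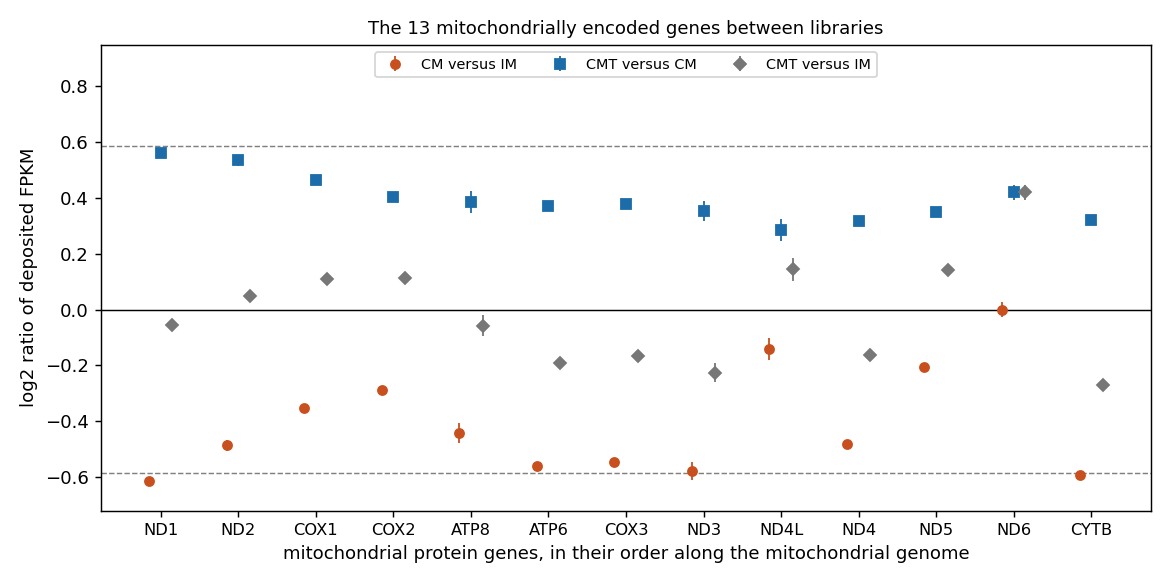
Log2 ratio of deposited FPKM (vertical axis) for the 13 mitochondrial protein genes in their order along the mitochondrial genome (horizontal axis), with 95% intervals of counting error as bars and the 1.5-fold threshold as dashed lines. CM versus IM lies below 0 for 12 genes and at 0.00 for ND6, CMT versus CM lies between 0.29 and 0.56, and CMT versus IM lies on both sides of 0.

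The mitochondrial ribosomal RNAs, which are transcribed from the same strand as most of these messages but are no members, were measured as well. The small rRNA was at 2097, 1087 and 1075 in IM, CM and CMT, and the large rRNA at 2488, 1643 and 1366. Both were lower in CM than in IM, by log2 ratios of -0.95 and -0.60, and unlike the protein genes neither was higher in CMT than in CM (log2 ratios -0.02 and -0.27). In a poly-A selected library these values do not measure the amount of ribosomal RNA.

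Complex I had 33 nuclear-encoded subunits among the members, 27 of which were lower in CM than in IM with a median log2 ratio of -0.21 as deposited, against 52.0% of all mRNA features below 0. Under equal reads 11 of the 33 were lower and the median was 0.07. The 6 core subunits, which form the matrix arm that carries electrons from NADH to coenzyme Q, had a median of -0.29, and the 27 supernumerary subunits one of -0.15. In CMT versus CM the medians were 0.49 and 0.28 as deposited, with all 6 core and 25 of 27 supernumerary subunits higher in CMT. Of all mRNA features, 48.5% lay below 0 in that comparison. Under equal reads 21 of the 33 subunits were higher in CMT than in CM, the median was 0.07, and not all core subunits stayed higher. The core subunit with the lowest CM to IM ratio was NDUFV1, which binds NADH and the flavin. Its FPKM was 581, 387 and 631 in IM, CM and CMT, so that CM was at 0.666 (0.611 to 0.725) times IM and CMT at 1.63 (1.49 to 1.78) times CM.

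The other core subunits were not equally far apart. NDUFS1, the largest subunit of that arm, was at 450, 414 and 578 in IM, CM and CMT, with ratios of 0.919 for CM to IM and 1.40 for CMT to CM. NDUFS8, an iron-sulfur subunit, was at 512, 396 and 654, with ratios of 0.773 and 1.65 (1.46 to 1.87). All 6 core subunits were lowest in CM, and NDUFS1 and NDUFS8 were highest in CMT.

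Among the supernumerary subunits NDUFA3 had the lowest CM to IM ratio of all nuclear-encoded members. It was at 440, 292 and 453 in IM, CM and CMT, with a ratio of 0.665 (0.549 to 0.804), and CMT was 1.55 (1.27 to 1.89) times CM. NDUFA2 was at 1226, 819 and 1355, with ratios of 0.668 and 1.66. NDUFA9, which sits near the coenzyme Q site, was at 577, 395 and 622, and NDUFA10 was at 858, 588 and 927. In these 4 subunits CM was the lowest library and CMT the highest, with CMT 1.55 to 1.66 times CM. NDUFA2, at a log2 ratio of -0.58, was just short of the 1.5-fold threshold for CM versus IM.

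Some supernumerary subunits went the other way. NDUFC1 had the highest CM to IM ratio of the structural subunits and was at 188, 256 and 267 in IM, CM and CMT, with CM at 1.36 (1.20 to 1.54) times IM. NDUFB3 was at 251, 289 and 388, and CMT was 1.54 (1.34 to 1.79) times IM. Both were lowest in IM and highest in CMT. Of the 33 nuclear-encoded subunits, 25 were higher in CMT than in IM as deposited and 29 under equal reads. The median log2 ratio of that comparison was 0.09 as deposited, and 51.0% of all mRNA features lay below 0.

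Complex II, or succinate dehydrogenase, is wholly nuclear-encoded and is also an enzyme of the citric acid cycle. Its catalytic pair was lower in CM than its membrane anchors. SDHA, the flavoprotein, was at 1111, 781 and 1083 in IM, CM and CMT, with CM at 0.703 (0.656 to 0.753) times IM. SDHB, the iron-sulfur subunit, was at 3200, 2197 and 3099, with CM at 0.687 (0.663 to 0.711) times IM. SDHA over SDHB was 0.347, 0.355 and 0.350, a nearly constant ratio. The anchor SDHC was at 2238, 2053 and 2373 with a ratio of 0.918, and the anchor SDHD at 1322, 1391 and 1449 with a ratio of 1.05 (1.01 to 1.10). In CMT, SDHA and SDHB stood at 0.975 and 0.969 times their IM levels.

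Complex III was represented by few nuclear-encoded members, UQCRB and UQCR10, both small subunits. UQCRB was at 826, 553 and 730 in IM, CM and CMT, with CM at 0.669 (0.563 to 0.795) times IM, just short of 1.5-fold. UQCR10 was at 2687, 2058 and 2889, with a ratio of 0.766. Both were lowest in CM, as was CYTB of the same complex.

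The 8 nuclear-encoded subunits of complex IV had a median log2 ratio of -0.13 and 0.12 for CM to IM and CMT to CM, and none was 1.5-fold apart in any comparison as deposited. As deposited 7 of 8 were lower in CM than in IM and 7 of 8 higher in CMT than in CM, whereas under equal reads 0 of 8 were lower in CM than in IM and 2 of 8 higher in CMT than in CM, with medians of 0.15 and -0.12. The lowest CM to IM ratio was that of COX5B, at 3494, 2994 and 3663 in IM, CM and CMT (ratio 0.857). The isoforms of subunit 7A, of which COX7A1 is known from heart and muscle and COX7A2 from liver, did not run in parallel. COX7A1 was at 1450, 1280 and 1847, and COX7A2 at 1486, 1536 and 1518, so that COX7A1 over COX7A2 was 0.976, 0.833 and 1.22 in IM, CM and CMT. CMT was 1.44 (1.29 to 1.61) times CM for COX7A1 and 0.988 (0.901 to 1.08) times CM for COX7A2. The mitochondrial core of complex IV was lower in CM by more than its nuclear-encoded subunits, and the median level of the former over the latter was 43.6, 33.3 and 41.9 in IM, CM and CMT.

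Complex V had 12 nuclear-encoded subunits, with a median log2 ratio of -0.07 and 0.11 for CM to IM and CMT to CM as deposited, and of 0.21 and -0.13 under equal reads. Among these 12, the catalytic pair of the F1 head had the lowest CM to IM ratios. The pair was not alone in this when subunits entered under other names, listed further below, are counted. Of those, ATP5C1, ATP5O and ATP5D had CM to IM ratios of 0.764, 0.774 and 0.888. ATP5B, the beta subunit that forms the catalytic sites, was at 4456, 3306 and 5007 in IM, CM and CMT, with CM at 0.742 (0.722 to 0.762) times IM and CMT at 1.51 (1.47 to 1.56) times CM. ATP5A1, the alpha subunit, was at 3253, 2573 and 3819, with ratios of 0.791 and 1.48. For both, CM was the lowest and CMT the highest library. The 3 genes ATP5G1, ATP5G2 and ATP5G3 encode the same mature c-subunit of the rotor ring, and they were not alike. ATP5G1 was at 546, 602 and 635, with the highest CM to IM ratio of the complex at 1.10 (1.06 to 1.15). ATP5G2 was at 1161, 1092 and 1098, and ATP5G3 at 2880, 2712 and 3237. As deposited, ATP5G1 was lowest in IM and the others in CM, while under equal reads ATP5G3 was lowest in IM as well and ATP5G2 was lowest in CMT.

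**Figure D4:**
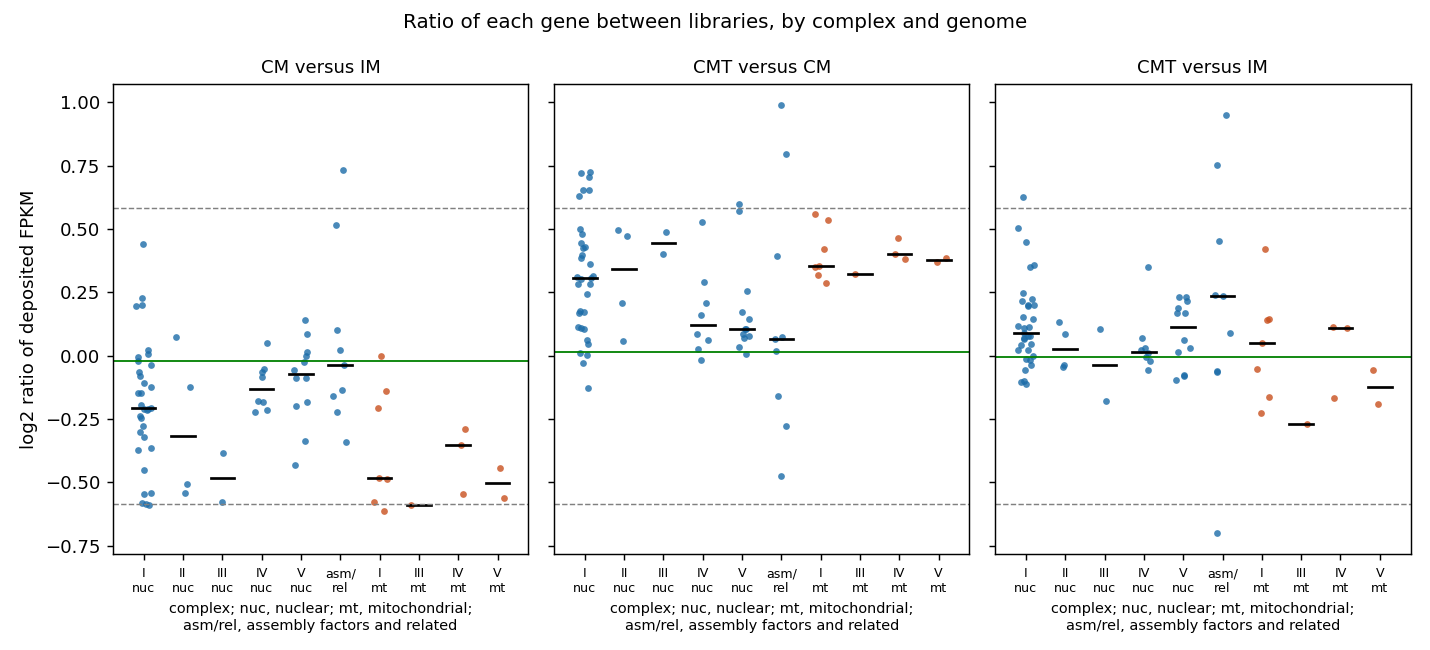
Log2 ratio of deposited FPKM (vertical axis) of each gene in the 3 comparisons, grouped by complex and genome of origin, with a black bar at the group median, a green line at the all-gene median and dashed lines at 1.5-fold. In CM versus IM the nuclear-encoded medians run from -0.48 (complex III) to -0.07 (complex V), and the mitochondrial medians from -0.59 (CYTB) to -0.35 (complex IV).

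The name prefixes also took in 7 assembly factors, which help to build complexes I and II but are not part of them, and the related proteins ATP5S and NDUFA4L2. Their levels ran from the few reads of NDUFA4L2 to an FPKM of 533 for NDUFAF3 in CMT. NDUFAF4, NDUFAF5 and NDUFAF6 rested on under 100 reads per library, with wide intervals. NDUFAF4 was at 16.7, 27.7 and 28.0 in IM, CM and CMT, from 38, 86 and 52 reads, with CM at 1.66 (1.12 to 2.50) times IM. NDUFAF5 was at 34.7, 33.8 and 67.0, from 49, 65 and 77 reads, with CMT at 1.99 (1.41 to 2.81) times CM. NDUFAF6 was at 60.3, 47.6 and 82.6, with CMT at 1.74 (1.27 to 2.37) times CM. The assembly factors differed in their order, with NDUFAF4 lowest in IM, and NDUFAF5 and NDUFAF6 highest in CMT. NDUFA4L2, a relative of the complex IV subunit NDUFA4, rested on 6, 7 and 3 reads, and its CMT to IM ratio of 0.615 (0.0996 to 2.88) is not distinguishable from 1 at this depth. Over the 7 assembly factors the CM to IM median was -0.04 on the log2 scale.

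CM was the lowest of the 3 libraries for 52 of the 68 nuclear-encoded and 12 of the 13 mitochondrial genes, against 38.7% of all mRNA features. Among the 52, CMT was highest for 34 and IM for 18, and among the 12, CMT was highest for 5 and IM for 7. Of the 66 nuclear-encoded genes with an interval, 37 had an interval of the CM to IM ratio below 1, 8 had one above 1 and 21 had one that held 1. For CMT versus CM, 43 lay above 1 and 1 below. These counts hold for the deposited scale, and with intervals that are in general too narrow they can overstate how many ratios differ from 1. With the libraries scaled to equal recovered reads, 18 of 68 nuclear-encoded and 10 of 13 mitochondrial genes were lower in CM than in IM, against 53 and 12 as deposited, and the nuclear-encoded median became 0.13 while the mitochondrial one stayed below 0 at -0.20.

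The gap between the genomes is the same under every scaling by construction, because each scaling multiplies a whole library by 1 factor. The mitochondrial median lay below the nuclear-encoded one by 0.34 on the log2 scale for CM versus IM, with 11 of 13 mitochondrial genes below the nuclear-encoded median and 8 of 68 nuclear-encoded genes below the mitochondrial median. For CMT versus CM it lay above by 0.17, with all 13 mitochondrial genes above the nuclear-encoded median. For CMT versus IM the difference was -0.13. Genes of the same genome or complex are not independent measurements, and with 1 library per group the gap has no replicate check.

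**Figure D5:**
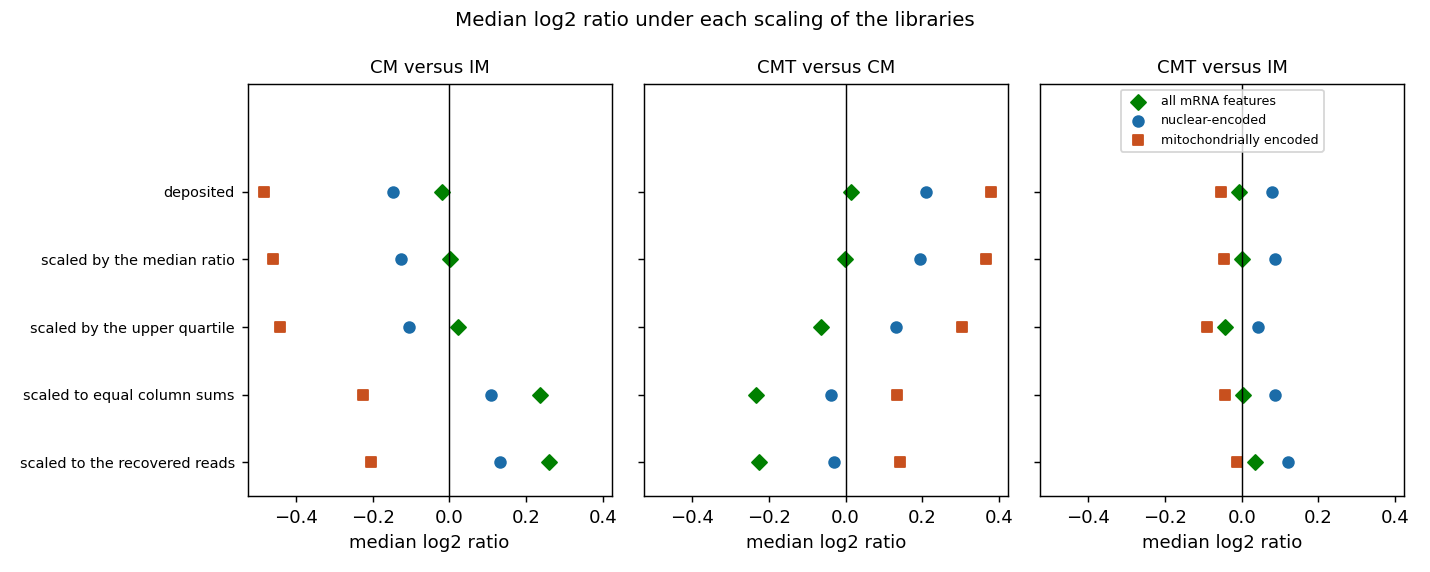
Median log2 ratio (horizontal axis) over all mRNA features, the nuclear-encoded and the mitochondrially encoded genes, under 5 scalings of the libraries (vertical axis), in the 3 comparisons. The 3 medians shift together by construction. For CM versus IM the nuclear-encoded median moves from -0.15 as deposited to 0.11 with equal column sums and 0.13 with equal reads, while the mitochondrial median stays below 0 throughout.

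A further 10 entries belong to the same pathway but carry a LOC number, or in the case of NUDFV2 a spelling taken here as NDUFV2, and so were outside the name rule. The entries of NDUFAF8 and ATP5C1 are also typed as miscRNA rather than mRNA and so fell outside by type as well. The entries encode ATP5D, NDUFAF1, NDUFV3, NDUFAF8, ATP5SL, NDUFAF2, ATP5C1, NDUFB6, ATP5O and NDUFV2. Their median log2 ratio was -0.32 and 0.37 for CM to IM and CMT to CM as deposited, with 9 of 10 lower in CM and 9 of 10 higher in CMT. Of all mRNA features, 52.0% and 48.5% lay below 0 in these comparisons. Under equal reads the CM to IM log2 ratios of ATP5D (-0.17), NDUFAF1 (-0.13), NDUFAF8 (-0.275) and NDUFAF2 (-0.15) change sign. The same holds for the CMT to CM log2 ratio of ATP5SL (0.11). ATP5O, the stalk subunit of the ATP synthase, was at 2068, 1601 and 2085 in IM, CM and CMT.

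Other genes that serve oxidative phosphorylation were measured beside the subunits. The mitochondrial ribosome, which translates the 13 mitochondrial messages, had 62 nuclear-encoded proteins past the minimum, with medians of -0.16 and 0.30 for CM to IM and CMT to CM. Of these, 47 were lower in CM than in IM and 55 higher in CMT than in CM, while under equal reads these counts were 15 and 36. As deposited, MRPS27, at 378, 229 and 417, was the only one of the 62 where CM was 1.5-fold or more below IM, against 12.1% of all features. At least 1.5-fold higher in CMT than in CM were 5 of the 62, against 12.1% of all features, namely MRPS27, MRPS14, MRPL19, MRPL3 and MRPL4. The 25 genes of mitochondrial DNA expression had medians of -0.14 and 0.16, and TUFM, the elongation factor that brings aminoacyl-tRNA to that ribosome, was at 787, 528 and 830. TUFM, FASTKD5, MTPAP and TRMT10C were at least 1.5-fold higher in CMT than in CM, 4 of 25 against 12.1% of all features. TOP1MT, on 3, 3 and 1 reads, was at least 1.5-fold lower, as were 13.5% of all features. Under equal reads the medians of these 25 genes were 0.14 and -0.08 for CM to IM and CMT to CM. The 16 further assembly factors had medians of -0.02 and 0.21, of which ACAD9, ECSIT, TMEM70 and UQCC were at least 1.5-fold higher in CMT than in CM, 4 of 16 against 12.1% of all features.

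The 10 genes of coenzyme Q synthesis had medians of -0.17 and 0.10 as deposited and of 0.11 and -0.14 under equal reads. COQ6 was at least 1.5-fold higher and PDSS1 at least 1.5-fold lower in CMT than in CM, 1 of 10 each. Of all features, 12.1% were higher and 13.5% lower by that much. The 8 carriers and uncoupling proteins had medians of -0.12 and 0.09 as deposited and of 0.16 and -0.15 under equal reads. In the latter list SLC25A4, an exchanger of ADP for ATP across the inner membrane, was at 4558, 2425 and 3442 in IM, CM and CMT, a log2 ratio of CM to IM of -0.91, while its relative SLC25A6 was at 2367, 2749 and 2063. The 9 regulators of mitochondrial biogenesis had medians of -0.04 and -0.07 as deposited and of 0.24 and -0.31 under equal reads. Among them ESRRA, a nuclear receptor known to act on genes of oxidative phosphorylation, was at 506, 340 and 621. SIRT3, a mitochondrial deacetylase, was at 254, 194 and 321. PPARGC1B, a coactivator, was at 4.42, 7.94 and 4.66. No reads were recovered for PPARGC1B, so its low values have no counting interval. ESRRA was thus lowest and PPARGC1B highest in CM. ESRRA and SIRT3 were at least 1.5-fold higher in CMT than in CM, 2 of 9 against 12.1% of all features. PPARGC1B was at least 1.5-fold lower in that comparison, 1 of 9 against 13.5%. It was also the only one at least 1.5-fold higher in CM than in IM, against 11.1% of all features.

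Markers of liver cell types differed between the pooled livers as well. ALB (albumin) was the most abundant mRNA in each of the 3 libraries. Of the hepatocyte markers 7 of 8 were found, and their FPKM values summed to 1060170, 775689 and 824016 in IM, CM and CMT, with 6 of 7 lower in CM than in IM and a median log2 ratio of -0.45. The 7 markers of T and NK cells summed to 568, 753 and 462, and all 7 were higher in CM than in IM. The 3 red blood cell markers found of 5 summed to 17237, 3416 and 5182. The sums were 11633, 11126 and 12200 for 7 of 8 macrophage markers, of which 6 were lower in CM than in IM with a median log2 ratio of -0.18. Single macrophage markers were far apart, with CM from 0.200 times IM for MARCO to 1.32 times IM for C1QB. For the 6 stellate cell markers the sums were 975, 950 and 847, with 3 lower and 3 higher in CM than in IM. They were 883, 723 and 852 for 4 of 5 endothelial markers, all 4 lower in CM than in IM. For 2 of 4 cholangiocyte markers, both higher in CM than in IM, they were 40.0, 68.9 and 45.7. These marker counts are as deposited, and 52.0% of all mRNA features lay below 0 in CM versus IM. Under equal reads the macrophage markers C1QA (-0.09), CD14 (-0.18) and CSF1R (-0.10) turn higher in CM. So do the endothelial marker STAB2 (-0.17) and the 3 lower stellate cell markers. None of the markers found was at 0 in all libraries. Their part in the values of the oxidative phosphorylation genes was not tested, and in pooled tissue fewer cells of a type and less RNA per cell cannot be told apart.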

How the data were processed

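Liver RNA of 3 groups was sequenced as 1 pooled library each (TruSeq kit). Reads were checked with FastQC and mapped to Sscrofa10.2 with TopHat, per the study's methods, and the authors deposited FPKM values for 34579 features per library. The counting program, the annotation and strandedness are not given in the sources used here.

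The members and gene lists were chosen with earlier results of these data known. Comparisons are ratios of deposited FPKM, without pseudocount or rescaling, for mRNA features that reached an FPKM of 1 in each of the 3 libraries, with the study's 1.5-fold threshold and without its p-value, which would compare libraries and not conditions. Reads were recovered for 95.2% of features above 0, as the smallest length up to 10000 bases that makes all 3 values whole multiples of a step, with divisors of 2.51, 3.42 and 2.04 reads per kilobase and FPKM unit. A common factor can be lost or added, and 4 mitochondrial genes were corrected by their RefSeq length. The factor was 2 for COX2 and ND3 and 0.333 for CYTB and ND6. Nuclear-encoded genes were not corrected. Their reads, read sums and interval widths can therefore be off by such a factor in either direction, while their ratios are not affected. Tested on simulated data of 3000 genes, the recovery gave exact reads for 91.1%, and for 97.4% when multiples were allowed. Reads were found for 79 of 81 members, from 3 reads upward, and 3 reads on 1 kb equal an FPKM of 1.20, 0.877 and 1.47 in IM, CM and CMT. The libraries were paired-end, and the recovery took both mates of a pair as separate reads. The intervals are therefore in general too narrow. Subunit pseudogenes can share reads with their genes.

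Named genes were all mitochondrial members, up to 3 core subunits per complex, members at least 1.5-fold apart, the highest and lowest CM to IM ratio per complex, the isoforms of subunit 7A and the c-subunit genes. From the other lists, genes at least 1.5-fold apart were to be named, up to 4 a list, and where a list had 5 the fifth, chosen after its values were seen, was added. A gene that the rule covers is not reported here by name. SLC25A6, ATP5O and the ratios of gene pairs other than the isoforms were chosen after their values were seen. LOC entries were named through the gene numbers of RefSeq (Sscrofa11.1), which matched 7047 of 19909, and no coordinates were used. Alternatives are given in the closing section. Python 3.11.15, numpy 2.4.6, pandas 2.3.3, scipy 1.17.1 and matplotlib 3.10.9 were used.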

Additional observations from a re-analysis of the deposited data

How the results depend on the processing

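No paired analysis was possible because each group is 1 pooled library. For the same reason no replicate could be left out. For CM versus IM, the nuclear-encoded median of -0.15 turned to 0.11 with equal column sums and 0.13 with equal recovered reads. The mitochondrial median of -0.48 stayed negative, at -0.46 (median ratio), -0.44 (upper quartile), -0.23 (column sums) and -0.20 (reads), and the 5 members past 1.5-fold became 2, 1, 3 and 3 in that order, with 4 lower and 1 higher in CM as deposited turning to 0 lower and 3 higher under the last pair of scalings. For CMT versus CM, the nuclear-encoded median of 0.21 turned to -0.039 (column sums) and -0.029 (reads). The mitochondrial median of 0.38 became 0.30 (upper quartile), 0.13 (column sums) and 0.14 (reads), and the 9 members past 1.5-fold became 5, 2 and 2, the last pair of scalings giving 1 higher and 1 lower in CMT in place of 9 higher. For CMT versus IM, the mitochondrial median of -0.05 became -0.090 (upper quartile) and -0.013 (reads), and the 4 members past 1.5-fold became 1 among structural subunits. Past 2-fold, 0 members differed in CM versus IM, 0 in CMT versus CM and 0 in CMT versus IM. The scalings differ by construction in 1 factor per library. In the other 60 combinations of result and setting (a minimum FPKM of 10, no minimum, 1 added as pseudocount, a counting interval that leaves out 1, structural subunits only and the scalings not named, and, chosen after seeing the data, the 10 added entries or leaving out ND6), medians kept their sign and moved by less than the counting interval of a typical member, and counts stayed within 1.5 times. Depth limits NDUFAF4, NDUFAF5, NDUFAF6 and NDUFA4L2, which rest on few reads.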
